A study of Mus musculus with 186 samples.

Results

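Inner cells of mouse embryos were compared after 16 hours of culture in LY294002 (LY), which blocks the lipid kinase PI3K, and in DMSO, the vehicle. The cells were chosen by their labels alone, as E2.75 embryos grown for 16 hours with either treatment, which gave 62 of the 169 cells analysed in the series, 31 in each arm. All embryos were of the CD-1 strain, came from timed matings and entered culture in KSOM medium at E2.75 (days after fertilisation, the morula stage); LY was given at 10 µM, and both arms had the zona pellucida removed and the outer cells lysed by immunosurgery. The labels place the cells of each arm on the same 3 collection dates, each covering several litters, with 11, 14 and 6 LY cells and 3, 18 and 10 DMSO cells on dates 1, 2 and 3. Other groups of the series, used below only to share the estimate of spread or as a reference, were the same treatments for 24 hours and uncultured inner cells of E3.25, E3.75 and E4.0. RNA was measured in single cells as TPM, a transcript abundance scaled to a fixed total, after reverse transcription from the 3′ end.

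Inner cells of the early blastocyst choose between epiblast, which forms the embryo proper, and primitive endoderm, which lines the yolk sac. They first carry both NANOG, the transcription factor of the epiblast, and GATA6, that of the primitive endoderm, and later keep only one; FGF4 from epiblast cells acts through ERK to favour primitive endoderm. PI3K makes a membrane lipid that recruits AKT, and AKT in turn restrains the FOXO factors and activates mTOR, which drives protein and lipid synthesis. LY294002 also inhibits related kinases, mTOR among them, and the parts of these targets cannot be told apart in this design.

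An experiment is the cells of 1 arm on 1 date, and its value is their mean log2(TPM + 1), which mixes how many cells have a transcript with how much they have. Cells of an experiment are not replicates, so n is 3 experiments per arm throughout. The depth of each cell is unknown, since TPM keeps none; 4236 to 9179 genes had a TPM of 1 or more in LY cells (median 7099) and 5357 to 10220 in DMSO cells (median 7438). On every date the mean was lower with LY: 8303, 6384 and 5809 genes with LY on dates 1, 2 and 3, against 9995, 7156 and 7102 with DMSO, a difference of -1252 genes (exact two-sided permutation p = 0.4 over the 6 experiments, where 3 against 3 cannot go below 0.1; 0.45 after Benjamini-Hochberg adjustment over 9 such quantities). The differences within dates were -1692, -772 and -1294 genes; an exact two-sided permutation that flips signs within dates gave p = 0.25, the smallest that 3 pairs allow. The size rests on single experiments, being -297 genes without the DMSO cells of date 1 and -1988 without the LY cells of date 1. The 3 DMSO cells of date 1 stood apart, with 9664 to 10220 genes each. Cells with under 6000 genes numbered 12 with LY, 8 of them from date 2, and 2 with DMSO. The mitochondrially encoded share of TPM was 13.2%, 8.31% and 9.73% with LY and 10.8%, 14.3% and 13.3% with DMSO (exact permutation p = 0.2), and it was under 5% in 10 LY cells, 8 of them from date 2, and in 1 DMSO cell. Genes detected were thus lower with LY on every date, while the mitochondrial share was higher with LY on date 1 and lower on dates 2 and 3. The part of both quantities in the gene results that follow was not tested beyond the values given.

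**Figure D1:**
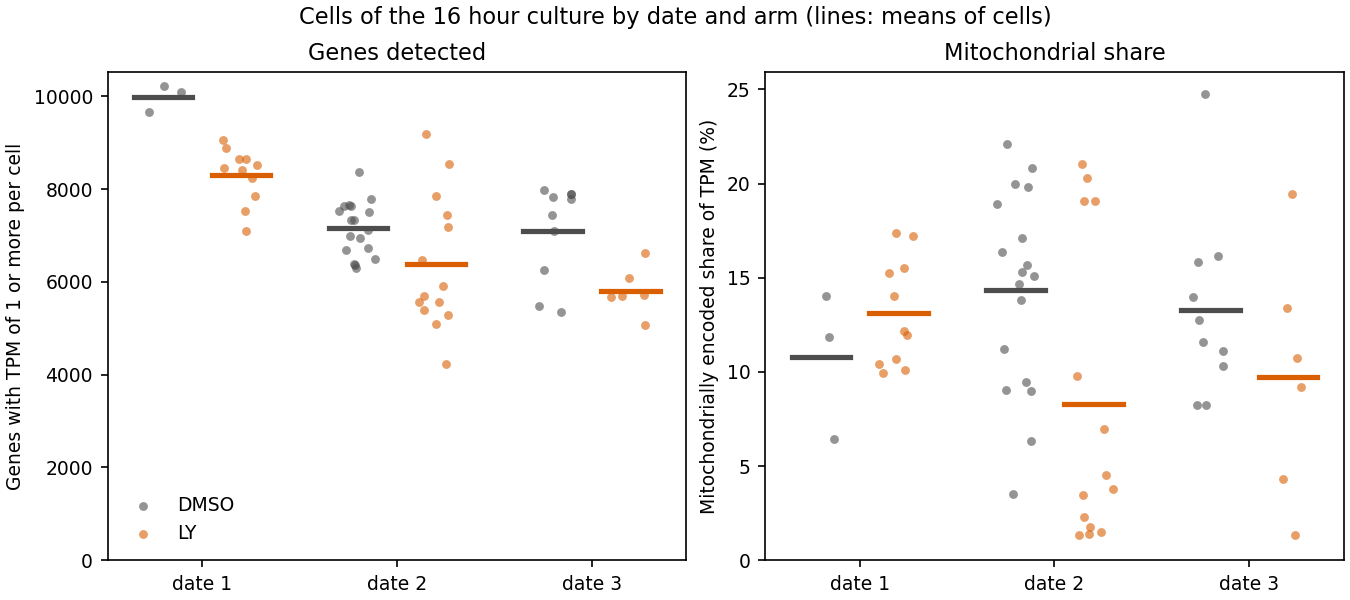
Each point is 1 cell of the 16 hour culture, by date (x axis) and arm (DMSO grey, LY orange), with the mean of the cells as a line; the left panel gives genes with a TPM of 1 or more, the right panel the mitochondrially encoded share of TPM in percent. LY means for genes lie below DMSO on each date, and 8 of the 14 LY cells of date 2 have a mitochondrial share under 5%.

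Across the transcriptome no gene passed the test. Of 11680 genes tested with limma (Benjamini-Hochberg adjusted p under 0.05), 0 (0.0%) differed between LY and DMSO, and the smallest adjusted p was 0.0701. Before adjustment, 593 genes (5.08%) had a p under 0.05 with a lower value in LY and 48 (0.411%) with a higher value. This limma fit, used for the genes below, does not pair the arms by date. With the date as a block 0 genes passed as well (smallest limma adjusted p = 0.225). The values leaned to one side: 8922 genes (76.4%) had a lower mean with LY, and the median difference over all genes was -0.33 on the log2(TPM + 1) scale, being -0.50, -0.21 and -0.25 on dates 1, 2 and 3. The median difference was 0.01 after quantile normalization of the experiment means and -0.01 with genes detected as a covariate. The split of genes with unadjusted p under 0.05 then became 238 lower of 454 and 180 lower of 348. Quantile normalization gives every experiment the same distribution, which sets this median near 0 in advance. The covariate is counted from the same TPM values, so neither is a check of the lean. Rescaling without mitochondrial and spike-in sequences gave a median of -0.36. Differences below are therefore to be read against -0.33, and the lists against the share of all genes. All 3 LY experiments were below all 3 DMSO experiments for 1032 genes (8.84%) and above them for 158 (1.35%); LY was the lower arm on each of the 3 dates for 4166 genes (35.7%) and the higher arm on each for 624 (5.34%).

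Nanog (chromosome 6, 122707489 to 122714633, mm10), the epiblast factor, was lower in LY cells. Its experiment means were 5.67, 3.52 and 4.04 with LY on dates 1, 2 and 3 and 6.18, 5.73 and 6.42 with DMSO, on the log2(TPM + 1) scale. Every LY experiment lay below every DMSO experiment, with date 1 the closest pair. The difference of -1.70 ± 0.94 (SE) did not pass the test (limma adjusted p = 0.854), and was -0.97 with genes detected as a covariate, -2.48 among cells of sequencing run 1 and -0.62 among those of run 2. By cell, Nanog reached a TPM of 10 in 21 of 31 LY cells (67.7%, exact Clopper-Pearson 95% interval 48.6% to 83.3%) and in 30 of 31 DMSO cells (96.8%, 83.3% to 99.9%); such intervals cover counting error only and treat the cells as independent. The LY cells above that level were 10 of 11, 7 of 14 and 4 of 6 on dates 1, 2 and 3, against 3 of 3, 17 of 18 and 10 of 10 DMSO cells. The mean share over experiments differed from DMSO by -28.96 percentage points (exact permutation p = 0.1, adjusted 0.45). That p is the smallest of a permutation that ignores the dates. Flipping signs within dates gave an exact permutation p of 0.25, the smallest that 3 pairs allow. With a TPM of 1 as the level in place of 10 the difference was -10.3 points (exact permutation p = 0.4). Within sequencing run 1 the share differed by -40.5 points (exact permutation p = 0.1) and within run 2 by -9.52 (p = 1.0). Values by run, here and below, rest on few cells in some experiments. DMSO on date 1 is 1 cell in run 1 and 2 cells in run 2, and LY on date 3 is 2 cells in run 2. The 10 LY cells under a Nanog TPM of 10 had a median of 5739 genes detected against 7844 in the other 21, and 6 of the 10 had under 6000 genes. Among cells with at least 6000 genes, 4 of 19 LY cells and 1 of 29 DMSO cells were under that Nanog level.

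Gata6 differed less. Experiment means of this primitive endoderm factor were 3.87, 3.05 and 3.54 with LY and 4.19, 4.32 and 3.79 with DMSO. They were lower with LY on all 3 dates but overlapped between arms (difference -0.61 ± 0.55, limma adjusted p = 0.872). In cells with at least 6000 genes the difference was 0.30. That level leaves out 12 LY cells, among them 4 of the 6 of date 3, and 2 DMSO cells. A TPM of 10 was reached in 21 of 31 LY cells and 24 of 31 DMSO cells, and the share per experiment differed by -3.96 percentage points (exact permutation p = 0.9). Cells with both factors at that level numbered 7 of 11, 5 of 14 and 3 of 6 with LY on dates 1, 2 and 3, and 2 of 3, 15 of 18 and 6 of 10 with DMSO. This double-positive class was smaller with LY on each date, with a mean difference of -20.2 points (exact permutation p = 0.2); the difference was -37.5 points within run 1 and -6.75 within run 2. Date 2 carried most of it: the difference was -47.6 points on that date and -6.515 without it in both arms. It was -5.185 points with a TPM of 50 as the level. Gata6 without Nanog was seen in 6 LY cells and 1 DMSO cell (exact permutation p = 0.1 over shares), and neither factor in 4 LY cells and in 0 of 31 DMSO cells (a count of 0 here permits at most 9.68%). Nanog without Gata6 was found in 6 LY cells and 7 DMSO cells. All cell-share p values were 0.45 or 0.9 after adjustment.

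**Figure D2:**
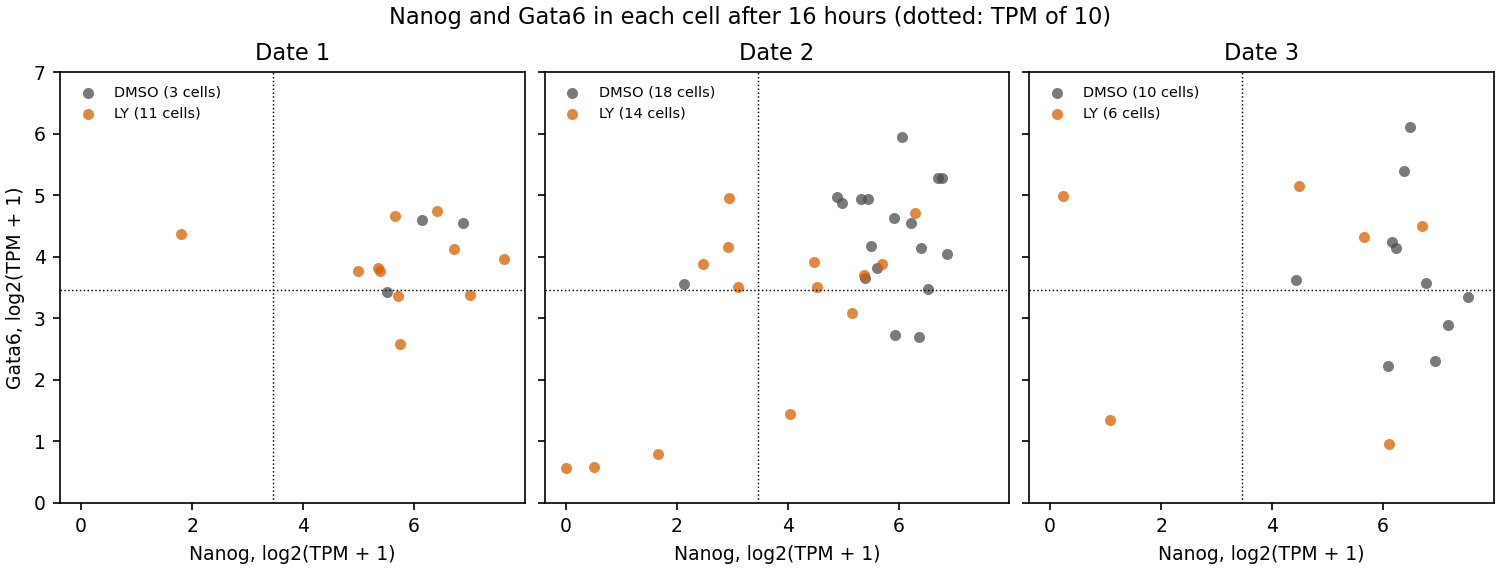
Each point is 1 cell, with Nanog on the x axis and Gata6 on the y axis, both as log2(TPM + 1), in a panel for each date (DMSO grey, LY orange; dotted lines at a TPM of 10). Of the cells left of the vertical line, 10 are LY cells, 7 of them on date 2, and 1 is a DMSO cell.

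Among the 22 tested genes of the epiblast list, 0 passed the test and 18 had a lower mean with LY (median difference -0.36, beside -0.33 for all genes; -0.06 after quantile normalization and 0.02 with the covariate). Nanog, Fgf4 and Dppa5a were the 3 with LY wholly below DMSO, beside 8.84% of all genes. Fgf4 (chromosome 7, 144847367 to 144865243), the ligand that signals to primitive endoderm, averaged 0.73, 1.19 and 0.05 with LY and 3.12, 1.66 and 2.13 with DMSO. The arms did not overlap (difference -1.64 ± 0.70, limma adjusted p = 0.854; -2.24 in run 1, -0.81 in run 2 and -0.99 with the covariate), and a TPM of 1 or more was found in 7 LY and 19 DMSO cells. Other epiblast genes of high mean TPM differed by -0.85 (Dppa5a, an RNA-binding protein of pluripotent cells), -1.37 (Fbxo15) and -0.90 (Dppa4), with limma adjusted p of 0.893, 0.875 and 0.862; with genes detected as a covariate Dppa5a and Dppa4 were 0.06 and 0.12 above DMSO. Of the 4 genes of this list above 0, 3 are factors of the naive state (the other is Nr0b1): Esrrb differed by 0.58 ± 0.71, Klf4 by 0.41 ± 0.71 and Tfcp2l1 by 0.06 ± 0.65, all overlapping between arms, and the sign of each turns under at least 1 other processing. Sox2, which marks inner cells early, differed by -0.05 ± 0.72, a sign that other scalings turn, with a TPM of 10 in 13 LY and 10 DMSO cells.

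The general pluripotency list held 15 tested genes, of which 14 had a lower mean with LY (median -0.52; -0.30 after quantile normalization). In 5 of them LY lay wholly below DMSO, namely Nanog, Sall4, Dppa3, Trim28 and Dnmt3a, where 8.84% of all genes do so. Dppa3, which protects DNA methylation marks in the early embryo, averaged 10.3, 9.58 and 9.14 with LY and 11.1, 11.0 and 10.9 with DMSO. The DMSO dates lay close together and the LY dates spread below them (difference -1.31 ± 1.08, limma adjusted p = 0.863; -0.39 with the covariate). Trim28, a corepressor that silences retroviral elements, differed by -0.63 ± 0.49. Pou5f1, the exception, averaged 7.58, 7.47 and 7.44 with LY and 7.999, 6.55 and 6.87 with DMSO, a difference of 0.36 ± 0.53 (limma adjusted p = 0.912).

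**Figure D3:**
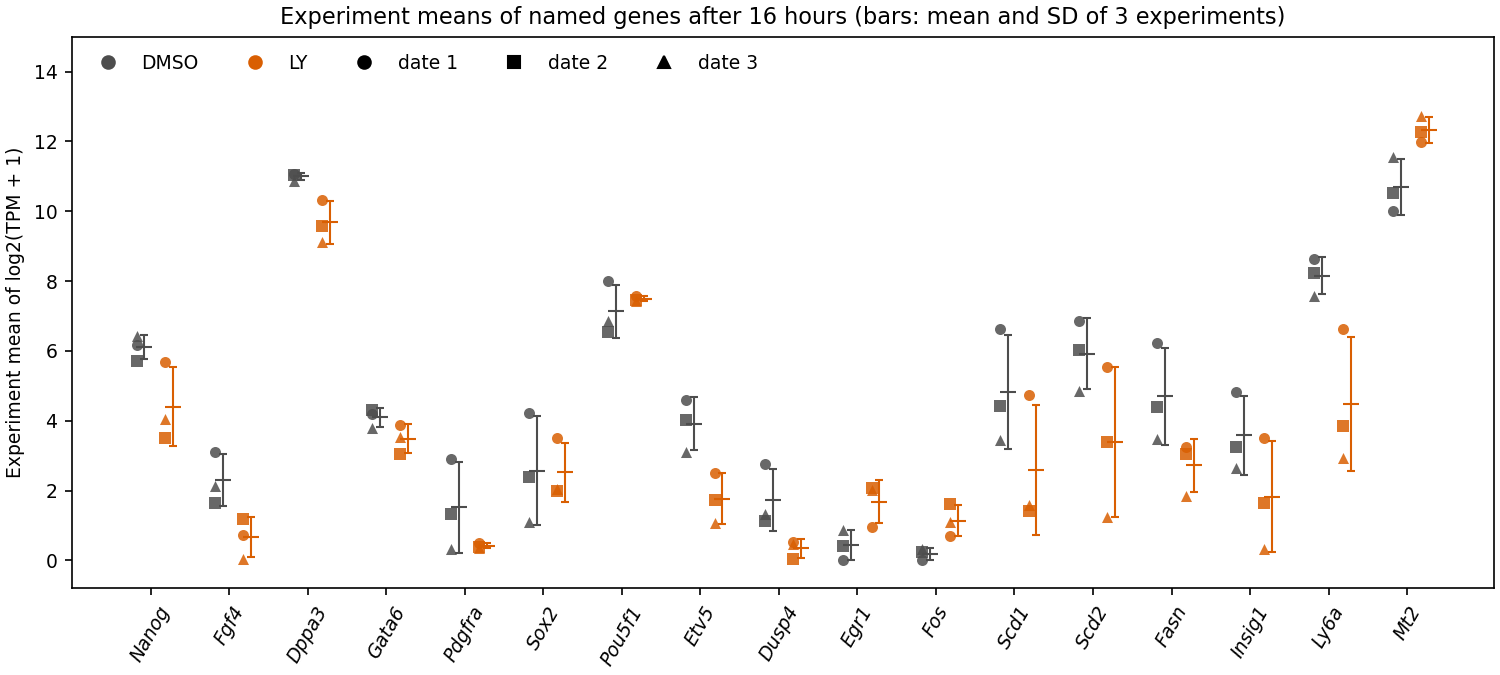
Experiment means of log2(TPM + 1) on the y axis for 17 genes on the x axis, with DMSO grey and LY orange and the date as the symbol; bars give the mean and SD of the 3 experiments. LY lies wholly below DMSO for Nanog, Fgf4, Dppa3, Etv5, Dusp4, Fasn and Ly6a, and wholly above for Egr1, Fos and Mt2.

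Of 25 tested primitive endoderm genes, 19 had a lower mean with LY, a share close to the 76.4% of all genes, and their median was -0.43 (-0.08 after quantile normalization, -0.14 with the covariate). LY was wholly below DMSO for Lamb1, Dab2 and Srgn, as it was for 8.84% of all genes. Lamb1, a laminin chain of the basement membrane, averaged 2.51, 1.43 and 2.61 with LY and 5.44, 4.74 and 3.27 with DMSO. That difference, -2.30 ± 0.76, was among the larger ones of the list yet did not pass (limma adjusted p = 0.809), and was -2.33 in run 1 and -2.21 in run 2. Dab2, an endocytic adaptor, differed by -1.51 ± 0.60, and Col4a1, a basement membrane collagen, by -1.08 ± 0.74 with overlapping arms. Pdgfra, a receptor of primitive endoderm precursors, averaged 0.50, 0.39 and 0.36 with LY and 2.89, 1.32 and 0.33 with DMSO. Only the DMSO cells of dates 1 and 2 were higher (difference -1.10 ± 0.66, limma adjusted p = 0.854; -0.35 with the covariate), and 13 DMSO cells against 4 LY cells had a TPM of 1 or more. The later factors Sox17 and Gata4 were near the floor in both arms, with a TPM of 10 in 0 and 1 LY cells and 1 and 1 DMSO cells; they differed by less than 0.01 and by 0.13, with signs that other processing turns.

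Markers of trophectoderm, the outer layer removed by immunosurgery, had a lower mean with LY in all 15 tested genes of 19 listed (median -0.62; -0.28 after quantile normalization, with 12 of 15 below 0). Cdx2, the defining factor of that layer, had a TPM of 10 in 0 LY cells and 1 DMSO cell, and Elf5 had a TPM of 1 in none, whereas the keratin Krt8 reached a TPM of 10 in 29 of 31 cells of each arm and Krt18 in 25 LY and 27 DMSO cells. The median of the list was -1.61, -0.096 and -0.65 on dates 1, 2 and 3. Krt7 (15 and 7), Eomes (14 and 11) and Id2 (8 and 6) reached a TPM of 1 in more LY than DMSO cells. So did Dppa1 (7 and 6) and Krt8 (31 and 30), while most other members did so in more DMSO cells. The summed TPM of the list averaged 362, 305 and 286 per LY cell and 1251, 287 and 373 per DMSO cell (exact permutation p = 0.4). DMSO was the higher arm on dates 1 and 3, by far the most on date 1, where its 3 cells held 673 to 1890 each. Cdx2 differed by -0.80 ± 0.29 (limma adjusted p = 0.854) with LY wholly below DMSO, and a TPM of 1 was reached in 1 LY and 8 DMSO cells. The keratins Krt8 and Krt18 differed by -0.47 ± 0.77 and -1.29 ± 0.97 (0.40 and -0.15 with the covariate), and the fatty acid binding protein Fabp3 by -1.73 ± 0.90.

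Of 19 tested genes of FGF and ERK signalling, 14 (73.7%, beside 76.4% of all genes) were below 0, and 0 passed the test (median -0.26; 0.05 after quantile normalization). LY was wholly below DMSO in 4, beside 8.84% of all genes, and wholly above in 2. Etv5, a transcription factor switched on by FGF, averaged 2.51, 1.74 and 1.07 with LY and 4.61, 4.03 and 3.10 with DMSO, so that the arms did not overlap. The difference was -2.14 ± 0.76 (limma adjusted p = 0.847), -2.52 in run 1, -1.54 in run 2 and -1.34 with the covariate, and Etv5 reached a TPM of 10 in 6 LY and 20 DMSO cells. Dusp4, a phosphatase that dampens ERK, averaged 0.54, 0.04 and 0.47 with LY and 2.76, 1.13 and 1.32 with DMSO (difference -1.39 ± 0.64, adjusted p = 0.854). Spry1, another inhibitor of the pathway, and the cyclin Ccnd1 were also wholly below DMSO, Spry1 by -0.59 ± 0.26. The 2 genes wholly above DMSO were Egr1 and Fos, immediate-early genes that ERK and stress kinases switch on within minutes. Egr1 averaged 0.97, 2.07 and 2.02 with LY and 0.02, 0.42 and 0.89 with DMSO, a gap of 1.24 ± 0.60 (limma adjusted p = 0.854). Fos averaged 0.71, 1.61 and 1.11 with LY against 0.00, 0.24 and 0.32, a gap of 0.96 ± 0.38, with a TPM of 1 in 13 LY and 2 DMSO cells. Of all genes, 1.35% were wholly above DMSO. Outside the list, Jun (0.77 ± 0.29), Junb (1.12 ± 0.70), Ier2 (1.51 ± 0.77) and the early-response gene Btg2 (1.12 ± 0.47) were higher with LY on all 3 dates too, with limma adjusted p of 0.854 each; Junb, Ier2, Btg2, Egr1 and Fos were singled out after their values were seen.

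The FGF receptors differed little: Fgfr1 by -0.27 ± 0.81 and Fgfr2 by 0.10 ± 0.54, with overlapping arms and signs that other processing turns. Spry4 was near the floor (difference -0.08 ± 0.17, 0.05 after quantile normalization), and Dusp6 was not tested, since it did not reach a TPM of 1 in 25% of the cells of any of the 7 groups (2 cells of each arm here).

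Components of the pathway that LY inhibits were close to the level of all genes. Of 28 tested PI3K, AKT and mTOR genes, 21 were below 0 (median -0.20, against -0.33 for all genes; 0.16 after quantile normalization and 0.10 with the covariate). LY was wholly below DMSO for Inppl1, a phosphatase of the PI3K lipid, and wholly above for Pik3ca, the catalytic subunit. Of all genes, 8.84% were wholly below and 1.35% wholly above. Tsc2, which restrains mTOR, averaged 5.73, 5.19 and 4.56 with LY and 5.07, 3.66 and 3.54 with DMSO. LY was the higher arm on each date, though the arms overlapped (1.07 ± 0.76, limma adjusted p = 0.855). Eif4ebp1, the translation repressor that mTOR phosphorylates, differed by 0.40 ± 0.48. Transcripts of the FOXO factors gave -0.13 ± 0.43 (Foxo1, 0.09 after quantile normalization) and 0.32 ± 0.78 (Foxo3). The 13 tested FOXO targets had a median of -0.24, with 10 below 0 (76.9%, beside 76.4% of all genes). Of these targets, Gadd45a and Trib1 had LY wholly below DMSO, beside 8.84% of all genes. Sod2, whose mean was the highest among them, differed by -0.37 ± 0.54 (0.06 with the covariate), Cdkn1b by -0.38 ± 0.41, and Irs2, with 0 cells at a TPM of 1 in both arms, did not pass the filter on low values.

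In the fit used throughout, the list furthest below all genes was that of cholesterol, a rank that other fits changed. After quantile normalization the mitochondrially encoded list was lower (-0.65). With the covariate the trophectoderm (-0.37), mitochondrially encoded (-0.34) and general pluripotency lists (-0.321, beside -0.316 for cholesterol) were lower. In cells with at least 6000 genes the general pluripotency (-0.78) and fatty acid lists (-0.75) were lower. All 24 tested genes of cholesterol synthesis and uptake had a lower mean with LY, 21 of them below the all-gene median (list median -0.82; -1.21, -0.71 and -0.80 on dates 1, 2 and 3). After quantile normalization 21 of 24 remained below 0 (median -0.39), with the covariate 18 (-0.32), and in cells with at least 6000 genes 22 (-0.62). Yet 0 genes passed the test, and LY was wholly below DMSO for none of the 24, beside 8.84% of all genes. Insig1, a sterol sensor of the endoplasmic reticulum that is itself a target of the sterol factor SREBP, averaged 3.51, 1.64 and 0.34 with LY and 4.83, 3.251 and 2.66 with DMSO. Each date had its own level, and LY was the lower arm within all 3. The difference was -1.75 ± 0.72 in the fit that does not pair dates (limma adjusted p = 0.854) and -0.85 with the covariate. With the date as a block the limma adjusted p was 0.287. Hmgcs1, an early enzyme of the pathway, averaged 2.36, 0.86 and 0.42 with LY and 3.83, 2.26 and 1.84 with DMSO (-1.42 ± 0.68; -0.59 with the covariate). The later enzymes Sqle (-0.90 ± 0.62) and Fdps (-1.17 ± 0.75) and the SREBP genes Srebf2 (-0.67 ± 0.62) and Srebf1 (-0.48 ± 0.70) overlapped between arms, and Srebf1 was above DMSO with the covariate, by 0.37.

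In fatty acid synthesis, 17 of 18 tested genes were below 0 (median -0.57; -0.20 after quantile normalization and -0.25 with the covariate), and LY was wholly below DMSO in 5: Acaca, Fasn, Elovl5, Fads1 and Acsl4. The share of all genes wholly below DMSO was 8.84%. Fasn, the fatty acid synthase (chromosome 11, 120805846 to 120824547), averaged 3.26, 3.06 and 1.84 with LY and 6.22, 4.40 and 3.48 with DMSO. Its highest LY experiment lay just under its lowest DMSO experiment (-1.98 ± 0.89, limma adjusted p = 0.854; -1.22 without the 3 DMSO cells of date 1, -0.92 with the covariate). The desaturases that introduce the first double bond had larger gaps. Scd2 averaged 5.55, 3.41 and 1.26 with LY and 6.87, 6.04 and 4.85 with DMSO (-2.51 ± 0.97; -1.21 with the covariate). Scd1 averaged 4.73, 1.42 and 1.59 with LY and 6.63, 4.42 and 3.45 with DMSO (-2.25 ± 0.85; -0.98 with the covariate). In both the arms overlap only through the LY cells of date 1. Both have a limma adjusted p of 0.854 (with the date as a block, 0.225 for Scd1 and 0.287 for Scd2). Their neighbour Scd3 was among the genes of smallest p: 0.76, 0.66 and 0.00 with LY against 3.46, 2.12 and 2.02 (-2.06 ± 0.46, adjusted p = 0.344), although reads of the 3 related genes may be shared. Elovl5 differed by -1.62 ± 0.61, Acaca by -0.58 ± 0.58 and the binding protein Fabp5, the member with the highest mean, by -0.35 ± 0.67 (0.24 with the covariate).

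Promoters of the 2 lipid lists were searched for TCACNCCAC, the core of a sterol response element, on both strands from 250 bases before the gene start to 50 after it, in RefSeq promoter sequences of build GRCm38.p6. It was found in 331 of 27025 genes (1.23%), in 1 of 17 matched cholesterol genes and in 1 of 15 matched fatty acid genes, Hmgcs1 and Acsl1. The Hmgcs1 match (chr13:119690204-119690232, plus strand) is shown because the gene's difference is described above, with the motif in capitals and 10 bases on each side.
Hmgcs1: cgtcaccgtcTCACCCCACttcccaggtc
A match is a description of these letters, and its absence elsewhere says only that they are not in the window.

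Growth-related lists followed. Of 28 ribosome biogenesis genes 27 were below 0 (median -0.77; -0.29 after quantile normalization and -0.29 with the covariate), with LY lower on all 3 dates for 18 (35.7% of all genes). Nop56, a nucleolar assembly factor, averaged 7.39, 6.46 and 6.94 with LY and 8.33, 7.73 and 7.44 with DMSO (-0.90 ± 0.58, limma adjusted p = 0.855). With Nop2, Ddx21 and Nip7, it was among 4 of the 28 genes with LY wholly below DMSO, beside 8.84% of all genes. Npm1, the member with the highest mean, differed by -1.19 ± 1.19 (-0.24 with the covariate). Translation factors had a median of -0.48 with 20 of 23 below 0, and Eef1a1, with the highest mean among them, differed by -0.31 ± 0.55 (0.23 with the covariate). Cytosolic ribosomal protein genes stood on the other side of the all-gene median: only 32 of 79 were below 0 and 12 below -0.33 (median 0.11; 0.14 after quantile normalization), with 0.55 ± 0.61 for Rplp1. Chaperones of the endoplasmic reticulum had 18 of 19 genes below 0 (median -0.61; -0.19 after quantile normalization), among them Manf (5.85, 5.45 and 3.32 with LY, 6.89, 6.60 and 5.88 with DMSO; -1.58 ± 0.70) and P4hb (-0.36 ± 0.50, but 0.05 after quantile normalization).

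Among genes of DNA replication, 22 of 23 were below 0 (median -0.61; -0.21 after quantile normalization), and in 6 LY was wholly below DMSO: Ccnd1, Ccne1, Cdc6, Mcm2, Mcm4 and Mcm6. Such a gap was seen for 8.84% of all genes. Ccne1, the cyclin of the entry into S phase, averaged 1.68, 2.07 and 0.81 with LY and 3.12, 2.73 and 2.94 with DMSO (-1.41 ± 0.57, limma adjusted p = 0.854). Mcm2, a subunit of the replicative helicase, differed by -0.96 ± 0.57, the thymidylate synthase Tyms by -1.60 ± 0.91 and Cdk4 by -0.28 ± 0.55, the last at 0.01 after quantile normalization. Mitosis genes gave a median of -0.45, near that of all genes, which turned to 0.03 after quantile normalization and 0.31 with the covariate. LY was wholly below DMSO for 0 of 27, beside 8.84% of all genes. Ccnb1 differed by -1.32 ± 1.06 and Birc5 by -0.10 ± 0.75, with 0.17 for Birc5 after quantile normalization. The p53 and apoptosis list had a median of -0.10 (0.31 after quantile normalization), and Bax differed by -0.65 ± 0.76 (0.02 with the covariate).

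Of 13 mitochondrially encoded genes, 12 were below 0, also after quantile normalization. Their median of -0.74 was the third furthest below all genes in the fit used throughout (-0.65 after quantile normalization, -0.34 with the covariate). That median varied by date, at 0.51 on date 1 and -1.57 and -0.96 on dates 2 and 3, with mt-Nd1 at 13.9, 12.4 and 12.3 with LY and 13.3, 13.8 and 13.5 with DMSO (-0.70 ± 0.74; 0.18 when the cells with a mitochondrial share under 5% are left out). Leaving those cells out drops 10 with LY and 1 with DMSO by a share that mt-Nd1 is part of, so that value is no check of the difference. Nuclear subunits of oxidative phosphorylation had a median of -0.38 (0.18 with the covariate). Of the 34 tested, Cox6a1 (0.94 ± 0.54), Ndufb8 and Ndufb10 were wholly above DMSO and 0 wholly below. Of all genes, 1.35% were wholly above and 8.84% wholly below. Medians were -0.12 for glycolysis (0.03 after quantile normalization), -0.17 for lysosome and autophagy (0.06), -0.19 for amino acid stress genes under ATF4 (0.32), -0.47 for the NODAL and BMP pathway (-0.15) and 0.07 for the LIF and STAT3 pathway (0.26). Of their members, Gapdh differed by -0.04 ± 0.44, Slc2a1 by 0.04 ± 0.69, Map1lc3b by less than 0.01 and Id3 by 0.92 ± 1.296, signs that other processing turns. No gene of any of the 23 lists passed the test.

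**Figure D4:**
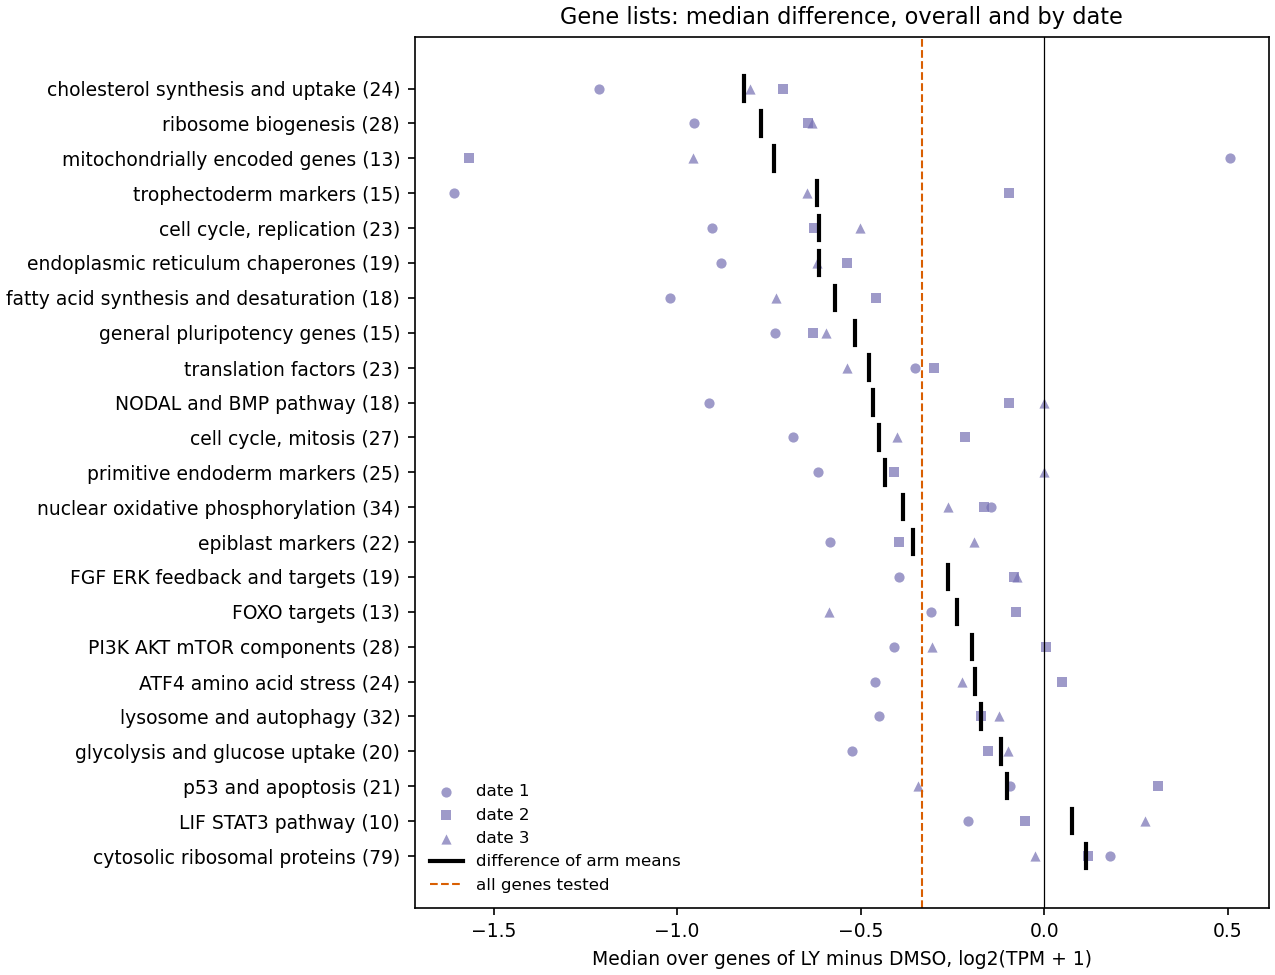
Median over the tested genes of each list (number in brackets, y axis) of LY minus DMSO on the log2(TPM + 1) scale (x axis): black bars for the difference of arm means, symbols for each date, dashed line for all genes tested. Cholesterol synthesis and ribosome biogenesis lie furthest below the dashed line at -0.82 and -0.77, and cytosolic ribosomal proteins furthest above it at 0.11; the mitochondrially encoded genes differ in sign between dates.

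The genes of smallest unadjusted p with the same direction on all 3 dates (12 on each side, chosen by that p among genes with a mean log2(TPM + 1) of at least 1 in an arm, so their values are descriptions) were mostly sparse. Prl3b1 (chromosome 13, 27241847 to 27249683), a placental member of the prolactin family, averaged 0.37, 0.40 and 0.21 with LY and 1.495, 1.54 and 1.301 with DMSO. These 6 means are tight within each arm (-1.12 ± 0.19, limma adjusted p = 0.0701), but rest on 4 LY and 11 DMSO cells with a TPM of 1 or more. Prl3b1 was past the threshold with a pseudocount of 10 (adjusted p = 0.00224), with log2 of the mean TPM (0.0318) and with experiments weighted by cells (0.0128); it was not with the date as a block (0.225), and the adjusted p ranged from 0.00224 to 1.0 over all alternatives. Allc averaged 0.15, 0.82 and 0.00 with LY and 2.55, 1.63 and 2.51 with DMSO (-1.91 ± 0.37, adjusted p = 0.167). The cytokine Tnfsf13b (-1.28), the deubiquitinase Usp46 (-1.18), Lyrm4 of iron-sulfur cluster assembly (-1.33), the ADP-ribosyltransferase family member Parp8 (-2.18), C130026I21Rik (-1.47) and the noncoding RNA Gm48222 (-2.29) had LY wholly below DMSO. So did 3 short genes that lie inside longer ones on the same strand, where reads of the host can be assigned to them: Mir3063 in Igf2bp1 (-3.07), Mir147 in AA467197 (-2.71) and the small nucleolar RNA Gm23187 in Nop56 (-2.26).

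Higher with LY were Mt2 and others. Mt2, a metallothionein that binds zinc and copper, averaged 11.99, 12.3 and 12.7 with LY and 10.0, 10.5 and 11.6 with DMSO, every LY experiment above every DMSO experiment (1.64 ± 0.54, limma adjusted p = 0.809; 1.68 in run 1, 1.69 in run 2, 1.27 with the covariate). Its median TPM was 5181 in LY cells and 1895 in DMSO cells, and its relative Mt1 differed by 1.33 ± 0.82 with overlapping arms, higher on all 3 dates. Hist1h2bc, a histone H2B gene with near-identical copies, averaged 4.18, 4.19 and 3.28 with LY and 0.39, 1.05 and 1.18 with DMSO (3.01 ± 0.77, adjusted p = 0.663), the largest positive difference of all genes tested; it had a TPM of 10 in 20 LY and 5 DMSO cells. Plod1, a lysyl hydroxylase of collagen, averaged 4.32, 4.11 and 3.803 with LY and 1.90, 2.11 and 1.13 with DMSO (2.36 ± 0.78), with a TPM of 10 in 24 LY and 5 DMSO cells. Baiap2, an adaptor of the actin cytoskeleton, averaged 3.68, 2.98 and 3.76 with LY and 1.35, 0.96 and 1.14 with DMSO (2.32 ± 0.78). The mitochondrial tRNA gene mt-Tk (2.84 ± 0.54, adjusted p = 0.167) had a TPM of 1 or more in 12 LY and 4 DMSO cells; it passed in run 1 alone (adjusted p = 0.0479) and without the LY cells of date 1 (0.0429), within a range up to 1.0. The others were Smyd3 (1.77), Taf9 (1.46), Prss16 (1.18), Tmem63b (1.02), Fancc (0.93) and Lyrm7 (0.79), besides Jun.

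The largest negative difference of all genes tested was that of Ly6a (chromosome 15, 74994877 to 74998031), a membrane-anchored surface protein, named after its value was seen. It averaged 6.63, 3.84 and 2.94 with LY and 8.65, 8.25 and 7.58 with DMSO. All LY experiments lay below all DMSO experiments, with the wider gaps on dates 2 and 3. The difference was -3.69 ± 1.16 (limma adjusted p = 0.784, and 0.225 with the date as a block). It was -3.29 in run 1, -3.97 in run 2 and -2.18 with the covariate. The TPM of Ly6a was at least 10 in 31 of 31 DMSO cells, with a median of 250, and in 18 of 31 LY cells, with a median of 18.2.

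The effect at 16 hours was set against that at 24 hours, measured on other dates and with other controls. Of 11680 genes 0 (0.0%) passed the limma test of the difference between the effects (smallest adjusted p = 1.0; 291 genes had an unadjusted p under 0.05), so no gene's effect can be called particular to 16 hours. Over all genes the 2 sets of differences correlated weakly (Pearson r = 0.18 across genes, which are not independent), and the median difference at 24 hours was -0.20. For Ly6a the later difference was -2.03, for Scd2 -1.98, for Scd1 -2.33 and for Lamb1 -1.94, the same side as at 16 hours. Nanog gave -0.68 and Fgf4 -1.09 at 24 hours. Etv5 gave -0.59, Dusp4 -0.07, Fasn -0.25, Egr1 0.03 and Hmgcs1 under 0.01, values nearer 0 than at 16 hours. Prl3b1, Allc and Hist1h2bc were at -0.09, 0.32 and 0.10. Cytosolic ribosomal proteins had a median of -0.67 at 24 hours beside 0.11 at 16 hours, and trophectoderm markers 0.06 beside -0.62.

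**Figure D5:**
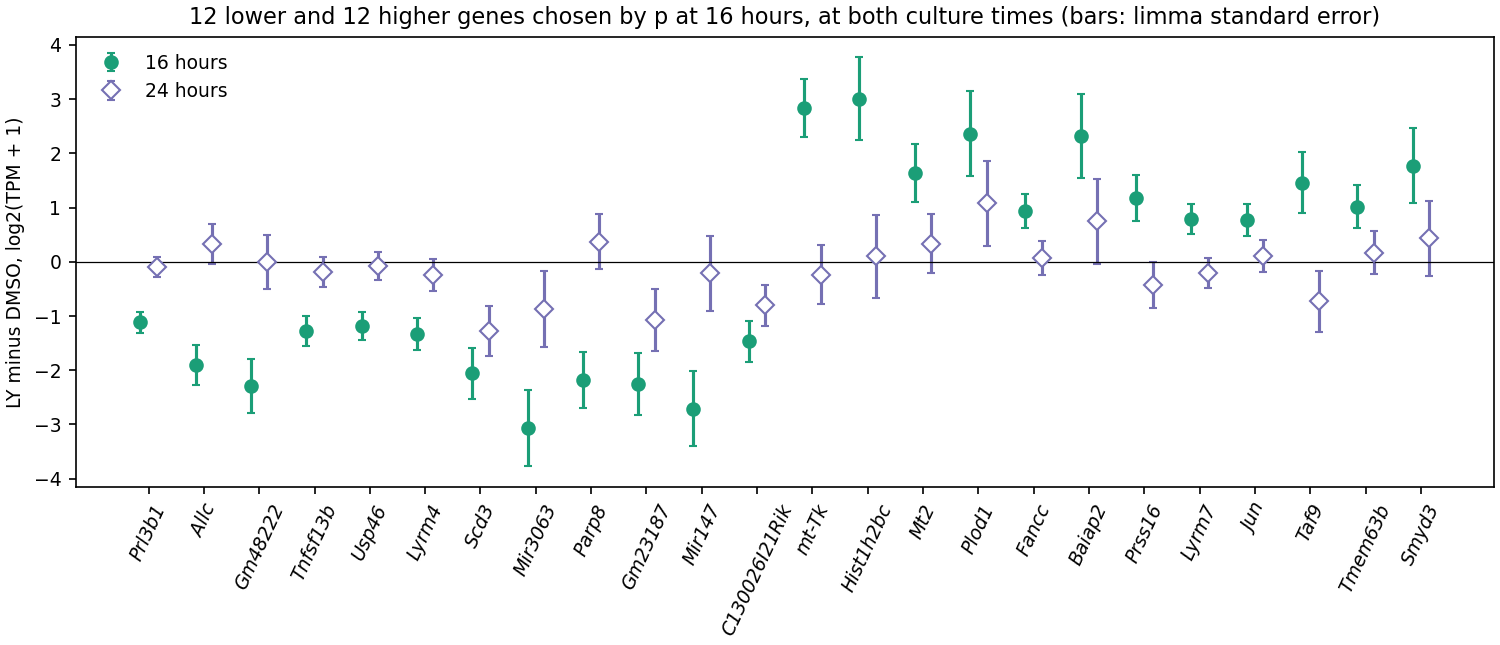
LY minus DMSO on the log2(TPM + 1) scale (y axis) with limma standard errors, at 16 hours (filled circles) and 24 hours (open diamonds), for the 12 lower and 12 higher genes of smallest p among those that met the rule above at 16 hours (x axis, lower genes first). Since these genes were picked for their 16 hour values, those are a description; at 24 hours most lie within 1 unit of 0, with Scd3 at -1.28, Gm23187 at -1.08 and Plod1 at 1.08 beyond it.

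Genes that change during normal inner cell development were set against all genes. Of 164 genes higher in uncultured cells at E4.0 than at E3.25 (limma adjusted p under 0.05), 112 had a lower mean with LY. That is 68.3%, beside 76.4% of all genes, and 41 had a higher mean. The median difference was -0.06, being 0.0, -0.16 and 0.0 on dates 1, 2 and 3. The remaining genes differed by exactly 0. In 129 of the 164 the difference lay above the all-gene median of -0.33 and in 35 below it. The reason was not tested, and 0 of the 164 passed the test of LY against DMSO. In 14 of the 164 genes LY was wholly below DMSO and in 4 wholly above, beside 8.84% and 1.35% of all genes. The 31 genes lower at E4.0 had a median of -0.23, with 22 below 0.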

How the data were processed

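Values came from 1 table of TPM that the authors deposited, with each of its 170 columns matched to 1 sample by title; 16 of the 186 labelled samples, 1 in each arm of the 16 hour culture among them, have no matching column and were not analysed here. The submitters' processing notes name build mm10 and, without settings or roles, RSEM 1.3.3, STAR 2.7.9a, cutadapt 2.9 and bcl2fastq 2.20.0; the annotation was not given in them. Per the labels' protocols, reverse transcription of mRNA began at the 3′ end, Nextera XT libraries were made, and pairs were sequenced in 2 runs; neither strand nor molecular identifiers are mentioned, so reads of overlapping genes cannot be told apart, and reads of pseudogenes and near-identical copies (of Nanog, Hist1h2bc or Eef1a1, for example) may be shared. TPM divides by transcript length, which 3′ priming does not follow, so levels of different genes were ranked only to choose the members of highest mean in each list. Gene positions and types are from GENCODE M21 (GRCm38, the same assembly as mm10).

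The replicate was the experiment, the cells of 1 arm on 1 date; its value was the mean of log2(TPM + 1). Log2 differences with this pseudocount understate low genes. A gene was kept where 25% or more of the cells of any of the 7 groups reached a TPM of 1. All 7 groups (18 experiments, 11 residual degrees of freedom) were fitted with limma 3.58.1 in R 4.3.3 (eBayes with trend), adjusted by Benjamini-Hochberg; the fitting script was tested on simulated data. Cell shares were compared by exact two-sided permutation of 6 experiments in scipy 1.17.1. Arms share date labels, so dates pair them: the correlation of deviations was 0.393, 0.121 and 0.317 for same dates and at most 0.0623 for others. The fit with date as a block was an alternative, as were other pseudocounts, filters, scalings, runs and left-out experiments. Genes were named as the 12 of smallest p on each side with 1 direction on all dates and a mean of at least 1 in an arm, the members of highest mean of each list, and a fixed set of fate, pathway and lipid genes; exceptions are stated, and some of these genes are not reported here. Members and lists were chosen with earlier results of these data known. Cells of both arms were kept without filtering; each sample is 1 picked cell, and no doublet caller was run.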

Additional observations from a re-analysis of the deposited data

How the results depend on the processing

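The count of genes past the limma threshold stayed at 0 in most of the 25 other fits. It was 1 with a pseudocount of 10, with log2 of the mean TPM and with experiments weighted by cells (Prl3b1 each time), 1 when every gene above 0 was tested (Pmis2), 1 in run 1 alone (mt-Tk), and 0 to 2 when single experiments were left out (mt-Tk without LY on date 1, Gm23187 and Zfp791 without DMSO on date 2); the cause was not tested. The replicate block by date also gave 0 genes, changed no call, and raised the genes with unadjusted p under 0.05 from 641 to 1420. The median difference was -0.094 with a pseudocount of 10, -0.64 with 0.1, -0.0078 over every gene above 0, 0.01 after quantile normalization, -0.0068 with genes detected as a covariate, -0.11 with weights, and -0.53 to -0.055 with single experiments left out, the value nearest 0 being without the 3 DMSO cells of date 1. The difference between the effects at 16 and 24 hours gave 0 genes in every fit that held both times. The Nanog and double-positive shares and the genes detected kept their sign in every alternative, and with signs flipped within dates as the replicate block each had an exact permutation p of 0.25, the smallest possible. TPM holds no depth, so no detection limit per cell can be given, and 3 experiments per arm limit every test.

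Of the 97 genes named, 69 kept the sign of their difference in every alternative. The others, mostly with differences near 0, turned as follows. With the covariate these values were Sox2 0.51, Dppa5a 0.062, Dppa4 0.12, Krt8 0.40, Fgfr1 0.46, Foxo1 0.11, Sod2 0.058, Fabp5 0.24, Srebf1 0.37, Eef1a1 0.23, Cdk4 0.21, Birc5 0.37, Bax 0.019, Gapdh 0.26 and Map1lc3b 0.13. Quantile normalization gave Sox2 0.49, Spry4 0.054, Fgfr1 0.26, Foxo1 0.095, Srebf1 0.018, Cdk4 0.0093, Birc5 0.17, Gapdh 0.036, Map1lc3b 0.047 and P4hb 0.049. Weighting by cells gave Sox2 0.40, Gata4 -0.0497, Krt8 0.47, Fgfr1 0.32, Sod2 0.095, Srebf1 0.25, Eef1a1 0.071, Gapdh 0.30 and Map1lc3b 0.048. Log2 of the mean TPM gave Sox2 0.083, Sox17 -0.0061, Gata4 -0.074, Esrrb -0.25, Gapdh 0.014 and Tfcp2l1 -0.018. A pseudocount of 0.1 gave Sox2 0.16, Sox17 -0.086 and Fgfr2 -0.024, one of 10 gave Foxo1 0.011, and rescaling without mitochondrial and spike-in sequences gave Sox17 -0.00999. Run 1 alone gave Sox17 -0.42, Spry4 0.0028, Fgfr2 -0.13, Slc2a1 -0.60, Gapdh 0.24 and Tfcp2l1 -0.0302; run 2 alone gave Cdk4 0.043, Map1lc3b 0.18 and Tfcp2l1 -0.11. Alternatives chosen after seeing the data were cells with at least 6000 genes (Gata6 0.30, Sox2 0.36, Sox17 -0.10, Gata4 -0.0800, Dppa4 0.15, Eef1a1 0.12, Birc5 0.12, Gapdh 0.13), cells with a mitochondrial share of at least 5% (Sox2 0.22, Sox17 -0.11, mt-Nd1 0.18), and both arms without date 1 (Sox2 0.28, Krt8 0.25, Spry4 0.00019, Fgfr1 0.089, Gapdh 0.17, Map1lc3b 0.024), date 2 (Sox2 0.12, Map1lc3b 0.011) or date 3 (Sox17 -0.19, Gata4 -0.029, Klf4 -0.26, Fgfr2 -0.11, Foxo1 0.22, Slc2a1 -0.74, Eef1a1 0.0042, Birc5 0.075, Gapdh 0.012, Id3 -0.17, Tfcp2l1 -0.16). With single experiments left out the ranges that crossed 0 were Sox2 -0.78 to 0.78, Sox17 -0.15 to 0.20, Krt8 -1.32 to 0.50, Fgfr1 -0.855 to 0.56, Fgfr2 -0.36 to 0.52, Foxo1 -0.41 to 0.32, Foxo3 -0.20 to 1.07, Sod2 -0.72 to 0.097, Slc2a1 -0.44 to 0.66, Srebf1 -0.99 to 0.30, Eef1a1 -0.76 to 0.0898, Cdk4 -0.69 to 0.28, Birc5 -0.33 to 0.071, Bax -1.27 to 0.078, Gapdh -0.31 to 0.32, Map1lc3b -0.075 to 0.084, Id3 -0.28 to 2.30 and Tfcp2l1 -0.053 to 0.24.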

Other observations

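The LY cells of date 2 were spread more widely than those of the other experiments. They ranged from 4236 to 9179 genes detected and from 1.35% to 21.1% mitochondrial TPM, with a median of 4.16%, while the DMSO cells of that date ranged from 6292 to 8359 genes and had a median of 15.2%. The external spike-in sequences made up a median of 1.7e-05% of TPM in those LY cells and 0.00385% in the DMSO cells of the same date. The 10 LY cells under a Nanog TPM of 10 had a median mitochondrial share of 6.87%, against 10.7% in the other 21 LY cells, and their median Gata6 TPM was 12.1 against 13.1.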
